A study of Homo sapiens with 8 samples.

Results

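The genes described here mostly encode subunits of the mitochondrial respiratory chain and of ATP synthase. They were measured by RNA-seq in 2 human renal cell carcinoma (RCC) lines cultured with or without branched-chain amino acids (BCAAs). They were chosen by gene symbol alone (the NDUFA, NDUFB, NDUFC, NDUFS, NDUFV, UQCR, COX4 to COX8 and ATP5 families, SDHA to SDHD, CYC1 and CYCS, and the protein genes of the mitochondrial genome, with the NDUFAF assembly factors left out). GENCODE 29 on GRCh38 holds 106 such genes, 93 of them nuclear and 13 mitochondrial. The 769-P table holds 87 of them among 25431 genes and the CAKI-1 table holds 85 among 24190, and the 85 are in both. All of these are nuclear. The 13 mitochondrial genes (MT-ND1, MT-ND2, MT-ND3, MT-ND4, MT-ND4L, MT-ND5, MT-ND6, MT-CO1, MT-CO2, MT-CO3, MT-CYB, MT-ATP6 and MT-ATP8) were not analysed here, so nuclear and mitochondrial genes could not be compared.

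Both lines are established clear cell RCC lines, and each condition has 2 libraries per line (8 libraries in all). Leucine and isoleucine were given at 0.38 mM each and valine at 0.17 mM, or all 3 were withheld, for 16 hours. 769-P was maintained in RPMI medium and CAKI-1 in MEM before treatment, so the line and its maintenance medium cannot be told apart. The methods describe the medium lacking BCAAs as RPMI made up from powder free of amino acids, with dialyzed serum. The labels do not say whether the 2 libraries of a condition came from separate cultures, and p-values then measure only the spread between these libraries, which may be technical.

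The respiratory chain passes electrons from NADH (complex I) and succinate (complex II) through ubiquinone, complex III and the mobile carrier cytochrome c to oxygen at complex IV. Complexes I, III and IV pump protons across the inner mitochondrial membrane, and ATP synthase (complex V) lets them return through its rotating ring of c subunits to make ATP. Most subunits are encoded in the nucleus and imported, and complex II is encoded by nuclear genes alone. Clear cell RCC is known for low mitochondrial respiration and a glycolytic metabolism. Catabolism of BCAAs in mitochondria yields acetyl-CoA and succinyl-CoA, which enter the tricarboxylic acid (TCA) cycle that supplies the chain with NADH and succinate.

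Values are read counts per gene divided by 1 size factor per library, called normalised read counts. Between 30979773 and 64256834 reads per library lay on listed genes. In 769-P the libraries with BCAA were deeper, at 64256834 and 55829324 reads, than the ones lacking it, at 39062721 and 40130258, so depth and condition went together there. With reads thinned to equal depth, 66 of the genes described here were higher in 769-P, against 68 at full depth. PAX8, a factor of the renal lineage, had means of 19074 and 10119.9 normalised reads in 769-P and CAKI-1. Of 12 renal markers, 11 had a value in 769-P and 9 in CAKI-1. CA9 had none in either line, and PAX2 and LRP2 had none in CAKI-1. Some of the listed markers were low. Means were 5.71 for KRT19 and 6.72 for LRP2 in 769-P, and 22.7 for CDH16 and 13.7 for MME in CAKI-1. The sum over the listed renal markers in 769-P was 135605 and 139047 with BCAA against 145877 and 143609 without (4 of 11 higher and 2 lower). In CAKI-1 it was 93794 and 99981 against 140669 and 136345. The CAKI-1 libraries with BCAA thus lay below those without, and 5 of 9 genes were lower. VIM, with means of 87899 in 769-P and 83611 in CAKI-1, accounted for most of the sum in both lines. Of 18 markers of other cell types, 9 had a value in 769-P and 8 in CAKI-1. Without COL1A1 and PDGFRB these summed to between 207.8 and 371.6 in every library. Most of that was RGS5, another marker of fibroblasts and mural cells, with means of 256.9 in 769-P and 280.5 in CAKI-1. COL1A1 had a mean of 120246 in CAKI-1 and was higher there with BCAA (log2 0.31 ± 0.10, adjusted p = 0.043). PDGFRB, a receptor of fibroblasts and mural cells, was higher with BCAA in 769-P (log2 1.88 ± 0.26, adjusted p = 8.4e-05, with a mean of 96.6 over the 4 libraries) and in CAKI-1 (log2 0.58 ± 0.12, adjusted p = 0.0064). The part of these markers in the results below was not tested.

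In 769-P, nuclear genes of all 5 complexes were higher with BCAA. Of 86 genes tested, 68 (79.1%) were higher and 2 were lower at an adjusted p under 0.05 (limma, Benjamini-Hochberg), where 20.3% of all 22391 genes were called higher and 18.2% lower. Their median log2 fold change was 0.47, compared with -0.02 over all genes tested. In 75 of the 86, both libraries with BCAA lay above both without, which 33.6% of all genes showed. At a mean of at least 100, 87.2% of these genes were higher, against 34.9% of other protein-coding genes. The largest rises were in ATP5MC3 and ATP5MC1, genes of the ATP synthase c ring, and the 2 genes that fell were COX7A2L and ATP5S.

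In CAKI-1 the same comparison gave 14 of 84 genes higher (16.7%, against 10.8% of 21347 genes tested) and 4 lower (4.76%, against 9.05%). The median log2 fold change was 0.06, compared with -0.01 over all genes tested. Both libraries with BCAA lay above both without in 40 of the 84, against 28.9% of all genes. At a mean of at least 100, 17.7% of these genes were higher, against 19.6% of other protein-coding genes. The share that rose was thus near the background of genes at like levels. The share that fell was 5.06%, against 14.8% of other protein-coding genes. All 14 of the genes that were higher in CAKI-1 were higher in 769-P too, as were 72.9% of the 2271 genes in all that were higher in CAKI-1 and tested in both lines. With any 1 of the 4 CAKI-1 libraries left out, calls were lost for every gene tested, so the loss was not particular to these genes. Their median log2 fold change then lay between 0.02 and 0.11.

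Respiratory chain and ATP synthase genes took 1.11% and 1.18% of reads in 769-P with BCAA and 0.814% and 0.809% without. Their share in CAKI-1 was 0.75% and 0.781% with BCAA and 0.739% and 0.721% without. The groups did not overlap in either line, but the gap was wide in 769-P and narrow in CAKI-1. The Wilson 95% interval of the largest share ran from 1.175% to 1.18% and covers counting error only. The summed normalised read count with BCAA was 1.39 times that without in 769-P and 1.04 times that without in CAKI-1.

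**Figure D1:**
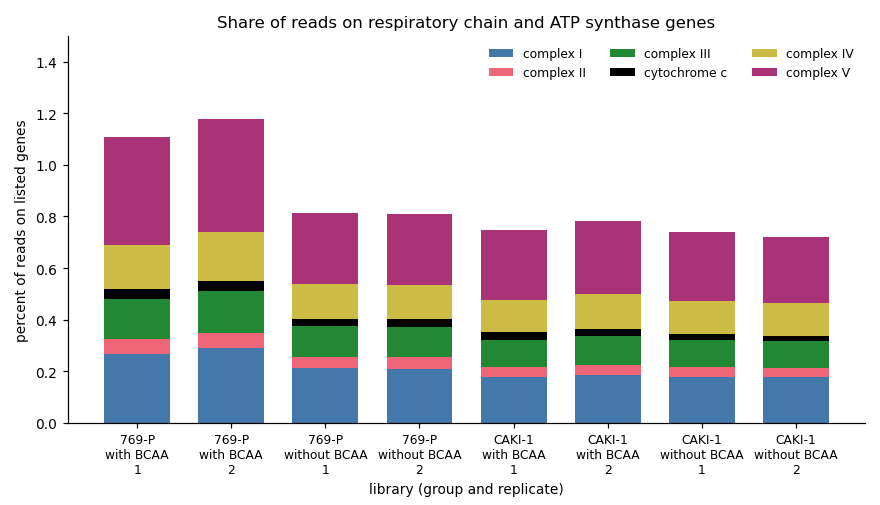
Stacked bars give the percent of reads on listed genes (vertical axis) that lay on the genes of each complex, for each of the 8 libraries (horizontal axis). The 769-P libraries with BCAA reached 1.11% and 1.18%, and the others lay between 0.721% and 0.814%.

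Such sums were not tested between the conditions, since an exact two-sided permutation test over 4 libraries cannot give a p below 0.333. In these bulk libraries, a change in some of the cells and a change in all of them cannot be told apart. Values are relative to the reads of each library, so a change in total RNA per cell does not show. Among other protein-coding genes with a mean of at least 100 and a median transcript length of 500 to 1000 bases, the median log2 fold change was 0.06 in 769-P and -0.01 in CAKI-1, and 39.1% and 18.7% of them were higher. With any 1 library left out in 769-P, fewer than the 68 rises were called, as was so over all genes tested. The median log2 fold change of these genes then lay between 0.44 and 0.53.

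Complex V had the largest rise in summed value in 769-P. Its 20 tested genes had a median log2 fold change of 0.54, with 17 higher and 1 lower. The lower gene was ATP5S, which was counted in complex V by its symbol alone. Together its genes stood at 203748 and 209680 normalised reads with BCAA and at 133228 and 134498 without, a ratio of 1.54. In CAKI-1 the ratio was 1.05, with 3 of 19 tested genes higher and 1 lower.

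ATP5F1B encodes the catalytic beta subunit of the F1 head and had the highest level per kilobase of exon of all these genes in both lines. It was at 65122 and 64647 normalised reads with BCAA and 41186 and 41333 without in 769-P. The conditions were far apart, with a log2 fold change of 0.65 ± 0.04 (SE, adjusted p = 3.6e-08). In CAKI-1 it was at 35414 and 36902 with BCAA and 34132 and 33016 without (0.11 ± 0.05, adjusted p = 0.21). Those libraries did not overlap either, but the difference was not called. ATP5F1A, the alpha partner of the beta subunit, was at 0.61 ± 0.04 in 769-P (adjusted p = 8.2e-08). ATP5IF1, the inhibitor that blocks ATP hydrolysis by the enzyme, was at 0.32 ± 0.07 in 769-P (adjusted p = 0.0021) and at 0.07 ± 0.07 in CAKI-1 (adjusted p = 0.59).

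The c ring, through which protons pass, is built from 1 mature peptide that is encoded by 3 genes, ATP5MC1, ATP5MC2 and ATP5MC3, which differ in the leader sequence used for import. These 3 genes did not move together. ATP5MC3 (chr2:175176258-175184607, minus strand) had 20841 and 22099.9 normalised reads with BCAA in 769-P and 7822 and 8105 without. The fitted change was 2.7-fold (log2 1.43 ± 0.04, adjusted p = 4.8e-10), with a wide gap between the conditions. In CAKI-1 it had 6697 and 7038 with BCAA and 5171 and 5101 without (log2 0.42 ± 0.06, adjusted p = 4.4e-04).

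ATP5MC1 (chr17:48892765-48895871, plus strand) had 3508 and 3489 normalised reads with BCAA in 769-P and 1517 and 1614 without (log2 1.16 ± 0.06, adjusted p = 1.7e-08). Its values in CAKI-1 were 2463 and 2584 with BCAA and 1723 and 1718 without (0.55 ± 0.07, adjusted p = 1.9e-04), the largest called rise in that line. ATP5MC2 (chr12:53632726-53677408, minus strand) went another way. It had 7934 and 8265 with BCAA in 769-P and 7450.2 and 7487 without, a difference that was not called (0.12 ± 0.04, adjusted p = 0.058). In CAKI-1 it had 6263 and 6804 with BCAA and 8474 and 8208 without, and it fell by 0.35 on the log2 scale (SE 0.06, adjusted p = 0.0018).

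The share of each gene in the subunit c reads differed accordingly. ATP5MC3 made up 64.6% and 65.3% of the summed value in 769-P with BCAA, and 46.6% and 47.1% without. ATP5MC2 made up 24.6% and 24.4% with BCAA, and 44.4% and 43.5% without. The sum of the 3 genes was 32283 and 33854 with BCAA and 16788 and 17206 without. In CAKI-1 that sum was 15424 and 16425 with BCAA against 15368 and 15026 without, whereas ATP5MC2 made up 40.6% and 41.4% against 55.1% and 54.6%. The share of ATP5MC2 was thus lower with BCAA in both lines, and the sum was far higher in 769-P alone.

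**Figure D2:**
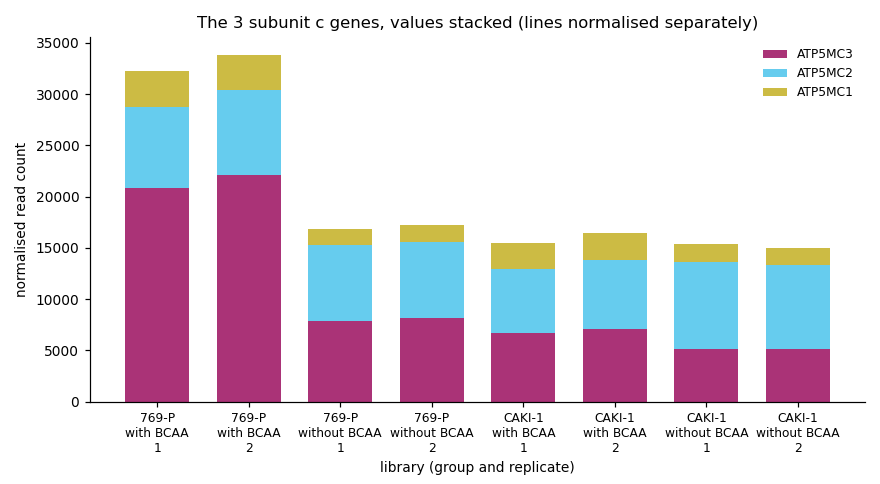
Bars stack the normalised read counts (vertical axis) of ATP5MC3, ATP5MC2 and ATP5MC1 in each of the 8 libraries (horizontal axis), with the tables of the lines normalised separately. The summed bars reach 32283 and 33854 in 769-P with BCAA and lie between 15026 and 17206 in the others.

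Promoter sequences are shown for 4 genes that behaved differently. They are a subunit c gene that rose in both lines, a subunit c gene that did not, cytochrome c, which rose in both lines, and COX7A2L, which fell. No usable promoter entry was found for ATP5MC3, the gene with the largest rise in 769-P, so it is not shown. Each is the 250 bases before the annotated start in RefSeq (GRCh38.p14), read 5′ to 3′ on the strand of the gene. Capitals mark a CCAAT box (CCAAT), a cAMP response element (TGACGTCA), the core of a nuclear respiratory factor 1 (NRF1) site (GCATGCGC) or an ETS core (CCGGAAG), each searched on both strands.
ATP5MC1 (chr17:48892537-48892786, plus strand): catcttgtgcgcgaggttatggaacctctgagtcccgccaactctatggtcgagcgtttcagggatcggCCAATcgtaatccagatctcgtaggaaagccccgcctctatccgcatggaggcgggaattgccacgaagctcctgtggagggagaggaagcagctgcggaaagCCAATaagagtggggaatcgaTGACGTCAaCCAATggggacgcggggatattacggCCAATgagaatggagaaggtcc
ATP5MC2 (chr12:53676084-53676333, minus strand): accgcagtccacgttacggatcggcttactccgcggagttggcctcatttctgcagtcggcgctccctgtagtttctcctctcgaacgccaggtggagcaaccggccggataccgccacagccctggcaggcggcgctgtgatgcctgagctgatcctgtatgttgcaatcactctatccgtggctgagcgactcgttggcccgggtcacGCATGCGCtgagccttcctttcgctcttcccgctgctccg
CYCS (chr7:25125261-25125510, minus strand): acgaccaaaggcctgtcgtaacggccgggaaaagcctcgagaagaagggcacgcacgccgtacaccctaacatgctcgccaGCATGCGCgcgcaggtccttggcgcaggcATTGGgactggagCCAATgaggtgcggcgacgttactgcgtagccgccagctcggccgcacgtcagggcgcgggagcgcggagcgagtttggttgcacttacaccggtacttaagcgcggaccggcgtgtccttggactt
COX7A2L (chr2:42361218-42361467, minus strand): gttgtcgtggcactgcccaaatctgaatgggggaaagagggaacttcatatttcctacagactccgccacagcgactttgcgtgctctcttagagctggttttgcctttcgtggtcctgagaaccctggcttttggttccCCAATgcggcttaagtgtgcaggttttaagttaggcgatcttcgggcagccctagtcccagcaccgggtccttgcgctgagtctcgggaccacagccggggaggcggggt

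In the ATP5MC1 promoter, CCAAT boxes start 181, 78, 48 and 22 bases before the start and a cAMP response element starts 57 bases before it. None of these overlap. The ATP5MC2 promoter holds no CCAAT box in this window and has an NRF1 core 40 bases before the start. This window lies inside the extent of ATP5MC2 given above, whose upstream end was not searched. The CYCS promoter holds an NRF1 core 169 bases before the start and CCAAT boxes, 1 on each strand, 140 and 127 bases before it. The COX7A2L promoter holds 1 CCAAT box, 110 bases before the start.

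Promoters within 5000 bases of the gene were found for 68 of the 87 genes. The NRF1 core was in 12 of the 68 (17.6%) and in 2.81% of all 27305 promoters of the same length. The ETS core was in 17 of the 68 and 8.82% of all, the CCAAT box in 30.9% against 33.0%, and the cAMP response element in 5.88% against 1.77%. Of the 53 genes that were higher in 769-P, 9 held the NRF1 core, 15 the ETS core and 19 the CCAAT box, compared with 3, 2 and 2 of the other 15. A C/EBP-ATF response element (TGATGCAA) was in 0 of the 68 and 0.82% of all promoters, an E-box (CACGTG) in 8.82% and 6.49%, and an SP1 box (GGGCGG) in 55.9% and 42.3%. The cAMP response element was in 4 of the 53, the E-box in 3 and the SP1 box in 30, compared with 0, 3 and 8 of the other 15. These 15 include genes with few reads per library (NDUFA3, NDUFA7, NDUFA4L2 and COX6B2), for which no change can be read. The split was not tested. All of these are matches of letters and say nothing of binding.

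Complex I, the largest complex, was higher in 769-P for 27 of 36 tested genes, and none was called lower. The median log2 fold change was 0.33. The 7 nuclear core subunits, which carry the flavin and the iron-sulfur clusters, had a median of 0.21 with 4 higher, and the 29 other subunits a median of 0.43 with 23 higher. In CAKI-1, 5 of 28 of these other subunits were higher. Whether the core differed from the other subunits was not tested, because subunits are not replicates of a condition.

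NDUFA1, a small subunit of the membrane arm, had the largest rise of complex I in 769-P. It had 3593 and 3928 normalised reads with BCAA and 1981 and 2102 without (log2 0.88 ± 0.06, adjusted p = 3.1e-07). The CAKI-1 libraries had 2062 and 2204 with BCAA and 1699 and 1825 without (0.28 ± 0.07, adjusted p = 0.019). The libraries of the conditions were separate in both lines. NDUFA1 shares 44.5% of its exon bases with RNF113A on the other strand, and without strand information reads from the overlap cannot be assigned.

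NDUFB3, of the membrane arm, had 3439 and 3550.5 with BCAA and 1941 and 1876 without in 769-P (0.87 ± 0.06, adjusted p = 1.3e-07). The CAKI-1 values were 1771.6 and 1772.3 against 1345 and 1388 (0.37 ± 0.07, adjusted p = 0.0029), so that the conditions were separate there too. NDUFA9, which sits where the peripheral arm meets the membrane arm, was at 0.84 ± 0.10 in 769-P (adjusted p = 2.3e-05) and at 0.35 ± 0.11 in CAKI-1 (adjusted p = 0.052). The accessory subunits NDUFS5 and NDUFS6 were higher in both lines. NDUFS5 was at 0.61 in 769-P and 0.39 in CAKI-1 (adjusted p = 1.6e-06 and 9.0e-04), and NDUFS6 was at 0.58 and 0.41 (adjusted p = 4.4e-06 and 0.001).

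The membrane arm subunits NDUFB5 and NDUFB4 showed wide gaps between the lines. NDUFB5 had 5427 and 5676 with BCAA and 3342 and 3398 without in 769-P (0.72 ± 0.05, adjusted p = 2.7e-07). In CAKI-1 it had 2963 and 2959 with BCAA and 3325 and 3134 without (-0.12 ± 0.06, adjusted p = 0.2). The CAKI-1 libraries with BCAA were thus the lower ones, but this was not called. NDUFB4 was at 0.83 ± 0.07 in 769-P (adjusted p = 1.4e-06) and at 0.01 ± 0.06 in CAKI-1 (adjusted p = 0.94).

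All 4 genes of complex II were higher in 769-P. SDHA, the flavoprotein that oxidizes succinate, had 12349 and 12573 with BCAA and 9259 and 9252 without (0.43 ± 0.04, adjusted p = 4.4e-06). SDHB, the iron-sulfur subunit, was at 0.47 ± 0.06 (adjusted p = 3.7e-05). The membrane anchors SDHC and SDHD were at 0.14 ± 0.04 (adjusted p = 0.018) and 0.39 ± 0.06 (adjusted p = 4.4e-04). The SDHC call was lost with quantile normalization and with a correction for length and GC content, which gave 0.05. In CAKI-1 the 4 genes lay between -0.07 for SDHD and 0.18 for SDHB, and none was called (adjusted p between 0.087 and 0.79).

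In complex III, 9 of 10 genes were higher in 769-P, with a median of 0.52. UQCRFS1, the Rieske iron-sulfur protein, had 4984 and 5145 with BCAA and 2619.6 and 2586 without (0.96 ± 0.05, adjusted p = 2.6e-08). Its CAKI-1 values were 3126 and 3007 with BCAA and 2574 and 2565 without (0.25 ± 0.06, adjusted p = 0.013). The small subunit UQCR10 was at 0.89 ± 0.06 in 769-P (adjusted p = 2.5e-07) and 0.36 ± 0.08 in CAKI-1 (adjusted p = 0.0079). Both genes were separate between the conditions in both lines.

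CYC1, the heme-bearing cytochrome c1 of complex III, had 16385 and 15147 with BCAA and 14392 and 14397 without in 769-P (0.13 ± 0.05, adjusted p = 0.041), a call that was lost under 5 alternatives. It was at 0.05 ± 0.06 in CAKI-1 (adjusted p = 0.59). UQCRHL is a near-identical copy of UQCRH, and reads may be split between them, so that their separate values are uncertain. UQCRHL was at 0.71 and UQCRH at 0.55 in 769-P, and they were at 0.23 and 0.11 in CAKI-1.

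Cytochrome c, the mobile carrier, had a similar change in both lines. CYCS had 11932 and 11555 normalised reads with BCAA and 8372 and 8053 without in CAKI-1 (0.52 ± 0.05, adjusted p = 8.2e-05). In 769-P it had 18454 and 19656 with BCAA and 13406 and 13963 without (0.48 ± 0.04, adjusted p = 3.8e-06). The conditions were separate in both lines. The difference between the effects was -0.04 on the log2 scale, with a 95% confidence interval of -0.19 to 0.11 (adjusted p = 0.76). CYCS has 40 annotated pseudogene copies, which may take part of its reads.

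In complex IV, 10 of 15 tested genes were higher in 769-P and 1 was lower. COX7B, a small subunit, had 4524 and 4872 with BCAA and 2439.5 and 2609.7 without (0.90 ± 0.06, adjusted p = 1.7e-07). In CAKI-1 it had 2519 and 2755 against 2083 and 1839 (0.43 ± 0.08, adjusted p = 0.0028), again with no overlap. COX4I1, the common form of subunit 4, was at 0.51 ± 0.04 in 769-P (adjusted p = 1.0e-06) and at -0.04 ± 0.06 in CAKI-1 (adjusted p = 0.71). ATP5MF, of the membrane part of ATP synthase, was another gene that was higher in both lines, at 0.72 ± 0.08 (adjusted p = 1.0e-05) and 0.54 ± 0.08 (adjusted p = 8.6e-04).

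COX7A2L fell in both lines. Its product resembles subunit 7A and joins complexes III and IV into supercomplexes. It had 4762 and 4829 normalised reads with BCAA and 7841 and 8432 without in 769-P, a log2 change of -0.76 ± 0.05 (adjusted p = 1.7e-07). CAKI-1 values were 4936 and 5394 with BCAA and 6034 and 5787 without (-0.20 ± 0.06, adjusted p = 0.049). The libraries did not overlap in either line, but the CAKI-1 call was lost under 7 alternatives. Its paralog COX7A2, the common form of subunit 7A, was at 0.66 in 769-P and 0.31 in CAKI-1 (adjusted p = 1.3e-06 and 0.0059). ATP5S, also known as DMAC2L, had 303 and 296 with BCAA and 419.8 and 440.2 without in 769-P (-0.52 ± 0.11, adjusted p = 0.0025), and was at -0.14 in CAKI-1 (adjusted p = 0.47).

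**Figure D3:**
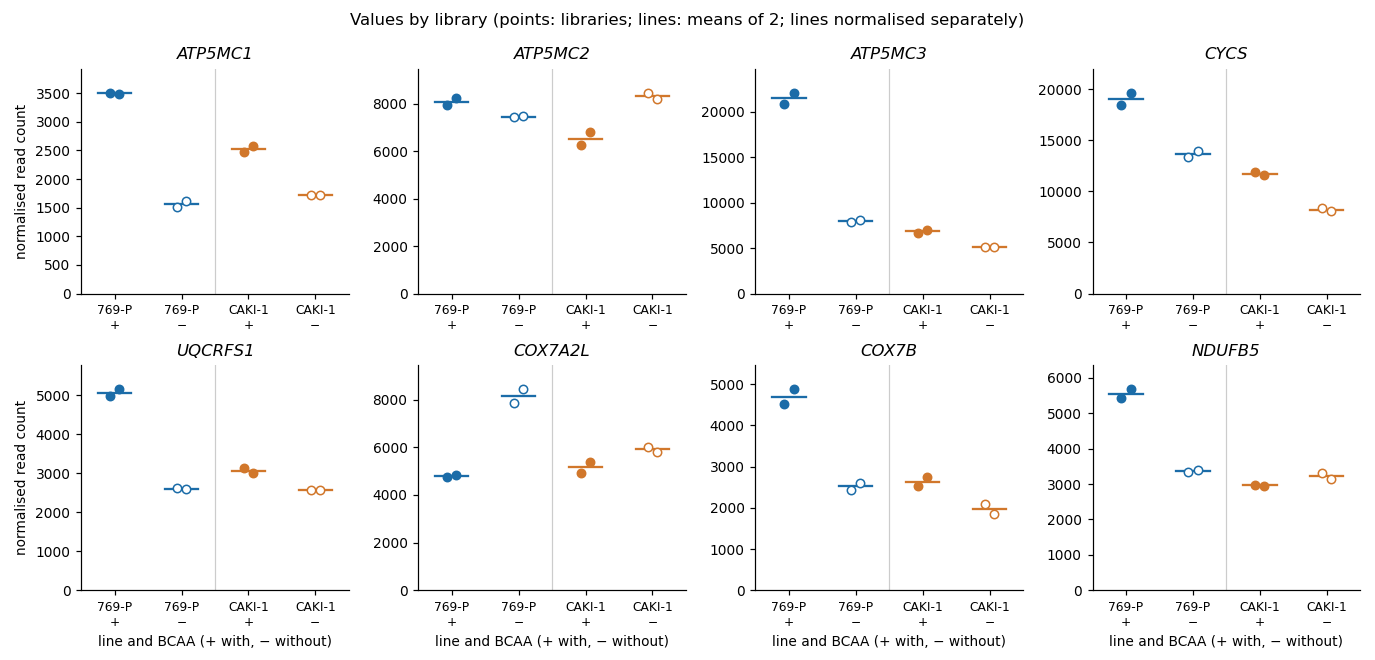
Each panel gives the normalised read count (vertical axis, from 0) of 1 gene in the 8 libraries by line and condition (horizontal axis), with filled points for BCAA, open points for none and bars for means of 2. Both CYCS libraries with BCAA lie above both without in each line, and both COX7A2L libraries with BCAA lie below.

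NDUFA4L2, a paralog of the complex IV subunit NDUFA4 and a known target of hypoxia-inducible factor, had 1 to 3 reads per library in 769-P, where no change can be read. In CAKI-1 it had 88.5 and 104 normalised reads with BCAA and 204 and 216 without, a log2 change of -1.12 ± 0.18 (adjusted p = 0.0012). This was the largest fall of the family in CAKI-1, and the call was lost under 1 alternative. NDUFA4 itself was at 0.45 in 769-P (adjusted p = 7.3e-06) and 0.09 in CAKI-1 (adjusted p = 0.35).

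The tissue-restricted isoforms were low. COX7A1, the heart and muscle form of subunit 7A, had 3 to 10 reads per library in 769-P and 1 to 5 in CAKI-1. COX6B2, the testis form of subunit 6B, had 0 to 4 and 0 to 5 reads. COX4I2, COX6A2, COX7B2 and COX8C were not analysed here. The common counterparts were higher in 769-P, with log2 fold changes of 0.52 for COX6A1, 0.80 for COX6B1 and 0.61 for COX8A beside those of COX4I1, COX7A2 and COX7B.

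Some obligatory subunits of complex I had low values as well. NDUFV2, a core subunit, had 16 to 24 reads per library in 769-P and 11 to 19 in CAKI-1, whereas its partner NDUFV1 had 8243 and 8332 normalised reads in 769-P with BCAA. In 769-P, NDUFA13 had 54 to 64 reads per library, NDUFA7 had 4 to 13 and NDUFA3 had 1 to 4. Exon bases shared on the same strand with other annotated genes made up 28.4% of NDUFV2, 21.0% of NDUFA13 and 32.3% of NDUFA7. The part of this overlap in the low counts was not tested. None of NDUFV2, NDUFA13, NDUFA7 and NDUFA3 was called in 769-P. ATP5MGL had 0 to 4 reads there, and the read-through gene ATP5MF-PTCD1 had 0 to 4.

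**Figure D4:**
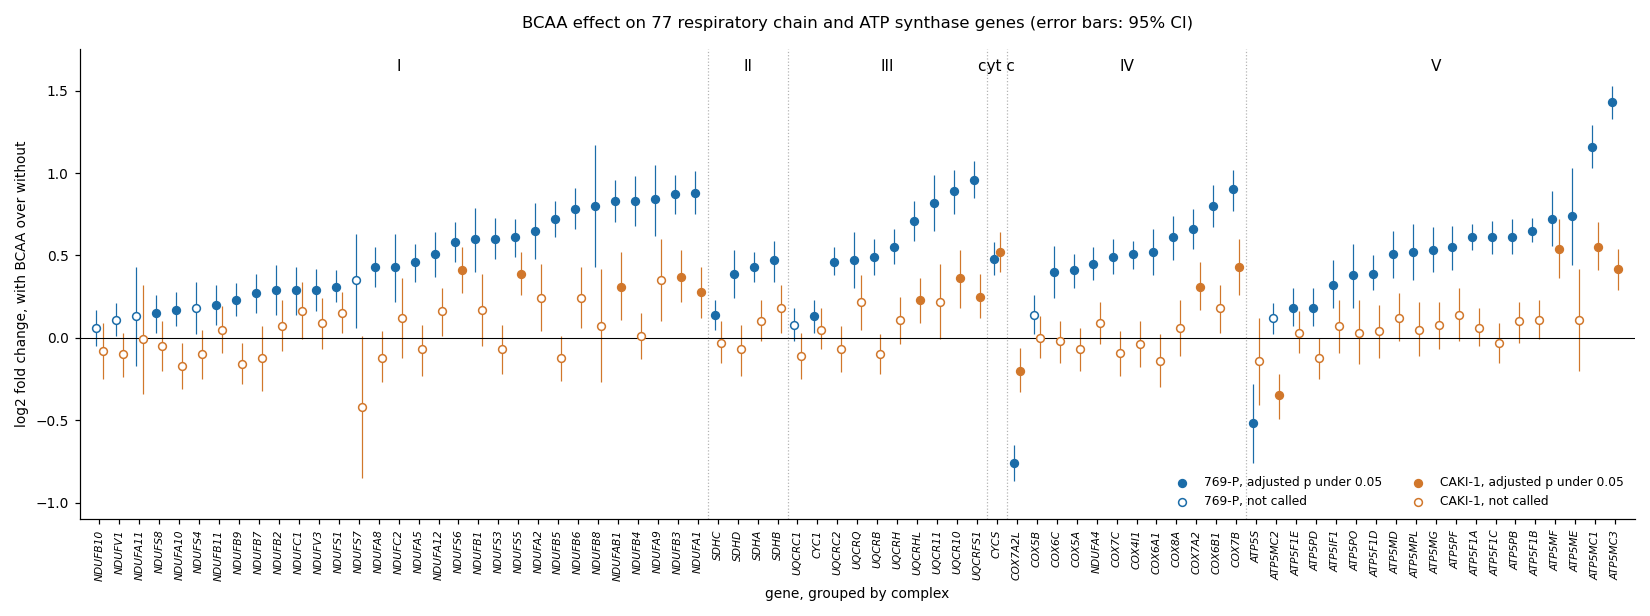
Points give the log2 fold change with BCAA over without of 77 genes whose mean reached 100 in both lines, by complex (horizontal axis), for each line, with 95% confidence intervals and filled points for called genes. Of the 77, 67 are called higher and 2 lower in 769-P, and 14 higher and 2 lower in CAKI-1.

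The BCAA effect differed between the lines for most of these genes. In 1 limma fit over the 8 libraries, the effect in 769-P was further up than in CAKI-1 for 53 of 84 genes (10.9% of 19406 genes tested in both lines) and further down for 1 (10.1%). The median difference was 0.41 on the log2 scale, compared with 0.01 over all genes. Of the 14 genes higher in both lines, 10 were further up in 769-P by this test.

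The largest difference was that of ATP5MC3, at 1.01 (95% confidence interval 0.86 to 1.16, adjusted p = 4.4e-07). NDUFB5 was at 0.84 (0.68 to 1.01, adjusted p = 4.5e-06) and NDUFB4 at 0.82 (0.60 to 1.03, adjusted p = 6.4e-05). NDUFS3, a core subunit of complex I, was at 0.68 (adjusted p = 1.1e-04), and COX6A1, of complex IV, was at 0.66 (adjusted p = 2.0e-04). NDUFS7, a core subunit with 256 to 531 reads per library in 769-P and 98 to 151 in CAKI-1, was at 0.77 (adjusted p = 0.031) and was not called in either line alone. Its difference was not called with the replicate block or with thinned reads. NDUFB8, also low at 113 to 329 and 148 to 239 reads, was at 0.72 (adjusted p = 0.048), a call that was lost under 7 alternatives. UQCRFS1 was at 0.71 (adjusted p = 1.9e-05). COX7A2L was the gene that was further down in 769-P, at -0.57 (-0.74 to -0.39, adjusted p = 2.2e-04). By complex, the genes further up in 769-P were 19 of 35 in complex I, 3 of 4 in complex II, 7 of 10 in complex III, 10 of 15 in complex IV and 14 of 19 in complex V.

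**Figure D5:**
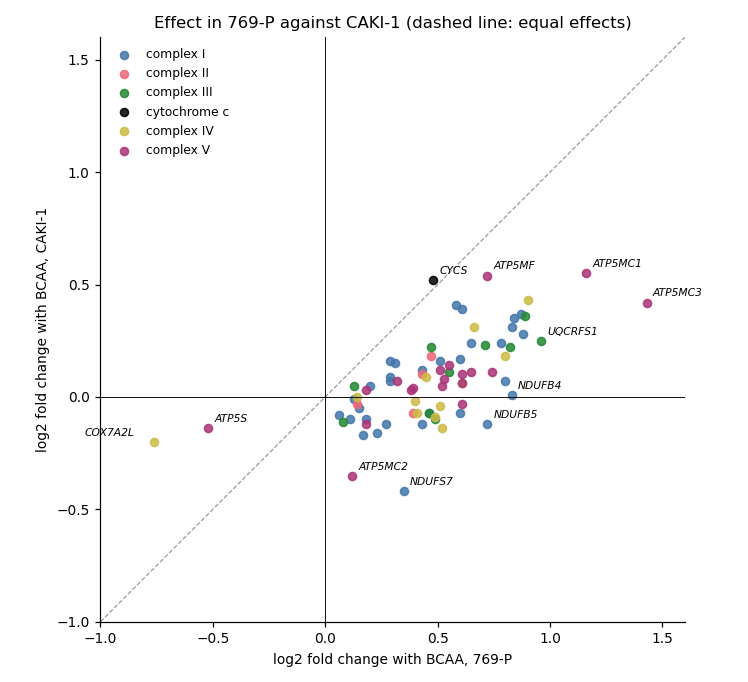
Each point is 1 of 77 genes whose mean reached 100 in both lines, with its log2 fold change with BCAA in 769-P and in CAKI-1 on the axes. CYCS lies at 0.48 and 0.52, and ATP5MC3 lies at 1.43 and 0.42.

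Genes that feed or serve the chain were counted from lists. Over all genes tested, 20.3% were higher and 18.2% lower in 769-P, and 10.8% and 9.05% in CAKI-1. Of protein-coding genes outside the family with a mean of at least 100, 34.9% were higher in 769-P and 19.6% in CAKI-1. In 769-P, 12 of 13 genes of the TCA cycle (92.3%) were higher, with a median of 0.31. In CAKI-1, 3 of 13 (23.1%) were higher, near the share at a mean of at least 100. FH, fumarate hydratase, was at 0.89 ± 0.04 in 769-P (adjusted p = 1.3e-08) and 0.39 ± 0.06 in CAKI-1 (adjusted p = 0.0012). SUCLG1, of succinyl-CoA ligase, was at 0.90 in 769-P (adjusted p = 1.2e-07) and 0.12 in CAKI-1 (adjusted p = 0.29). DLST, of the 2-oxoglutarate dehydrogenase complex, was at 0.55 (adjusted p = 1.2e-06) and -0.02 (adjusted p = 0.87).

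Of 18 tested genes for other electron entry to ubiquinone and for its synthesis, 12 (66.7%) were higher and 2 (11.1%) lower in 769-P. In CAKI-1, 5 of 17 (29.4%) were higher and 3 (17.6%) lower. CHDH, choline dehydrogenase, was at 1.66 ± 0.07 in 769-P (adjusted p = 4.3e-09). COQ3, a methyltransferase of ubiquinone synthesis, was at 1.19 and 0.59 in 769-P and CAKI-1 (adjusted p = 1.6e-06 and 0.0081). ETFA, of the flavoprotein that carries electrons from fatty acid and BCAA oxidation, was at 0.64 and 0.25 (adjusted p = 3.8e-07 and 0.012). COQ8A, an atypical kinase of the ubiquinone pathway, was at -0.77 and -0.45 (adjusted p = 8.0e-06 and 6.5e-04).

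Of 49 assembly factors tested, 22 (44.9%) were higher and 4 (8.16%) lower in 769-P, with a median of 0.18. In CAKI-1, 5 (10.2%) were higher and 4 (8.16%) lower. Most of these factors had a mean of at least 100 in both lines. Of other protein-coding genes at that level, 19.6% were higher and 14.8% lower in CAKI-1, so both shares lay below that background. UQCC1, which helps to assemble complex III, was at 0.67 in 769-P and -0.03 in CAKI-1 (adjusted p = 7.9e-07 and 0.84). COA3, a complex IV assembly factor, was at 0.74 and -0.02 (adjusted p = 1.2e-06 and 0.86). FOXRED1, a complex I assembly factor, was higher in both lines, at 0.91 and 0.46 (adjusted p = 3.0e-06 and 0.011). COX19, which serves copper delivery to complex IV, was at -0.97 in 769-P (adjusted p = 1.8e-07) and -0.05 in CAKI-1 (adjusted p = 0.79). In CAKI-1 the factor with the smallest adjusted p among those that fell was TTC19, which serves complex III, at -0.33 (adjusted p = 0.0031).

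Of 29 genes that maintain and express the mitochondrial genome, 16 (55.2%) were higher and 6 (20.7%) lower in 769-P. In CAKI-1, 7 (24.1%) were higher and 1 (3.45%) lower, where 19.6% of other protein-coding genes with a mean of at least 100 were higher. MGME1, a nuclease of mitochondrial DNA, was at 0.60 in 769-P and 0.32 in CAKI-1 (adjusted p = 4.4e-06 and 0.035). TRMT10C and ELAC2, which process mitochondrial tRNA, were at 0.62 and 0.43 in 769-P (adjusted p = 6.4e-06 and 1.1e-05). They were at 0.50 and 0.34 in CAKI-1 (adjusted p = 6.9e-04 and 0.0022). TWNK, the replicative helicase, was at -0.36 in 769-P and 0.05 in CAKI-1 (adjusted p = 1.7e-04 and 0.64). POLRMT, the mitochondrial RNA polymerase, was at -0.31 and -0.18 (adjusted p = 0.0038 and 0.099). The effect was further down in 769-P for 3 of the 29 (10.3%, against 10.1% of all genes) and further up for 0 (against 10.9%, limma). SLC25A5, an ADP/ATP carrier, was at 0.51 in 769-P (adjusted p = 7.9e-07) and -0.12 in CAKI-1 (adjusted p = 0.15), and was the only 1 of 3 tested carriers to be called. Nuclear pseudogene copies of mitochondrial genes had 16398 to 19805 reads per library over 36 genes in 769-P and 4639 to 6278 over 24 in CAKI-1, and were not used as a measure of the mitochondrial genes.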

How the data were processed

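RNA of 769-P and CAKI-1 cells was sequenced with 2 libraries per condition. The authors deposited 1 table per line with a signal per gene, that is, reads divided by a size factor per library. The submitters' processing notes name hg38, Trim Galore, TopHat2 2.1.0, SAMtools 1.3.1, HTSeq 0.6.0, DESeq and DESeq2. All values (100%) were whole multiples of 1 read within a tolerance of 0.01, which gave back the reads. Within each table the size factors were medians of ratios, so the lines were normalized separately and levels were not tested between them.

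Symbols came from GENCODE 29. Genes with a mean of at least 1 were tested with limma 3.58.1 (trend, R 4.3.3) on log2(value + 1), a scale that understates changes of low genes, with Benjamini-Hochberg adjustment at 0.05. The difference between lines was the interaction over 8 libraries. Levels per kilobase use the union of exons. edgeR 4.0.16 on recovered reads called 73 of these genes higher and 2 lower in 769-P, and 14 and 4 in CAKI-1. DESeq2 1.42.0, other scalings, filters, pseudocounts, thresholds and left-out libraries were further alternatives. The scripts were tested on simulated data.

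The genes and lists were chosen with earlier results of these data known. Named genes were the 8 largest called rises and falls per line with separate libraries, the 8 largest differences, up to 8 called alike and any called oppositely in both lines, complex II, CYC1, CYCS, isoforms, genes that share reads, genes at low levels, and up to 3 per direction from each list. ATP5F1A, ATP5F1B, ATP5IF1 and NDUFV1 were added after their values were seen. Results on 1 gene are not reported here.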

Additional observations from a re-analysis of the deposited data

Results flagged for a closer look

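The effect of BCAA differed between 769-P and CAKI-1 for the genes below by the limma interaction test, with log2 values given as the effect in 769-P minus that in CAKI-1. These differences are not independent of each other, since all rest on the same 8 libraries. In complex I, the difference was 0.84 for NDUFB5, 0.82 for NDUFB4, 0.77 for NDUFS7, 0.72 for NDUFB8, 0.68 for NDUFS3, 0.60 for NDUFA1, 0.54 for NDUFB6, 0.54 for NDUFA8, 0.53 for NDUFA5, 0.51 for NDUFAB1, 0.50 for NDUFB3, 0.49 for NDUFA9, 0.42 for NDUFB1, 0.41 for NDUFA2, 0.39 for NDUFB9, 0.39 for NDUFB7, 0.35 for NDUFA12 and 0.34 for NDUFA10. In complex II, the difference was 0.46 for SDHD, 0.32 for SDHA and 0.29 for SDHB. In complex III, the difference was 0.71 for UQCRFS1, 0.60 for UQCR11, 0.59 for UQCRB, 0.53 for UQCR10, 0.53 for UQCRC2, 0.49 for UQCRHL and 0.45 for UQCRH. In complex IV, the difference was 0.66 for COX6A1, 0.62 for COX6B1, 0.59 for COX7C, 0.55 for COX4I1, 0.55 for COX8A, 0.48 for COX5A, 0.47 for COX7B, 0.42 for COX6C, 0.36 for NDUFA4 and 0.35 for COX7A2. In complex V, the difference was 1.01 for ATP5MC3, 0.64 for ATP5F1C, 0.63 for ATP5ME, 0.61 for ATP5MC1, 0.55 for ATP5F1B, 0.55 for ATP5F1A, 0.52 for ATP5PB, 0.47 for ATP5MC2, 0.46 for ATP5MPL, 0.46 for ATP5MG, 0.41 for ATP5PF, 0.39 for ATP5MD, 0.36 for ATP5F1D and 0.30 for ATP5PD. Some of these calls were lost under alternative processing: NDUFB8 under 7, ATP5ME under 4, NDUFB1 under 4, NDUFA2 under 2, NDUFA9 under 2, NDUFS7 under 2 and SDHB under 2 of 12 alternatives that kept all libraries. The replicate block was among these for ATP5ME, NDUFB1, NDUFB8, NDUFS7 and SDHB. COX7A2L was the only one of these genes with a negative difference, at -0.57.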

How the results depend on the processing

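Requiring also a 1.5-fold change left 28 of the 68 rises and 1 of the 2 falls in 769-P, 0 of 14 rises and 1 of 4 falls in CAKI-1, and 16 of 53 and 0 of 1 differences between the lines, since few genes changed that much. The 14 rises in CAKI-1 became 9 with quantile normalization. The 4 falls there became 2 with no filter on low values, median centering, quantile normalization, scaling to total reads, a replicate block, thinned reads or an adjusted p under 0.01, and 10 with a correction for length and GC content, and the cause was not tested. The median log2 fold change in 769-P was 0.47, and it was 0.41 with quantile normalization and 0.34 with the length and GC correction. That in CAKI-1 was 0.06, with 0.11 after median centering and 0.02 after quantile normalization. With 1 library left out, where the lone library of a condition is assumed to vary like the others, limma called 38 to 44 rises and 1 fall in 769-P and 0 to 0 rises and falls in CAKI-1. The medians then ranged from 0.44 to 0.53 in 769-P and from 0.02 to 0.11 in CAKI-1. The thinned reads and the length and GC correction were chosen after seeing the data. Scaling to nuclear reads was not run separately, since it equals scaling to total reads here.

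Samples with the same replicate number did not deviate together (correlations of -0.088 in 769-P and 0.061 in CAKI-1). The labels do not say whether such samples were handled together. These correlations cannot settle it, because differences between single libraries could hide a small shared deviation. With the replicate block, 71 genes rose and 2 fell in 769-P, 14 rose and 2 fell in CAKI-1, and 48 were further up and 1 further down in 769-P. Outside the left-out libraries and the fold and 0.01 thresholds, 57 of 70 calls in 769-P, 10 of 18 in CAKI-1 and 47 of 54 differences held in every alternative run.

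No called gene changed direction. Of those not called, these log2 values changed sign. With pseudocount 5, this was COX6B2 in 769-P at 0.02. With quantile normalization, these were COX6B2 in 769-P at 0.07, ATP5F1E in CAKI-1 at -0.03, ATP5PO in CAKI-1 at -0.0003, COX5B in CAKI-1 at -0.06, CYC1 in CAKI-1 at -0.003, NDUFB4 in CAKI-1 at -0.05 and CYCS for the difference between lines at 0.01. With edgeR, these were COX6B2 in 769-P at 0.34, COX5B in CAKI-1 at -0.01 and NDUFB4 in CAKI-1 at -0.004. With DESeq2, these were COX6B2 in 769-P at 0.31 and NDUFA11 in CAKI-1 at 0.01. With reads thinned to equal depth, these were COX7A1 in 769-P at -0.12, ATP5PO in CAKI-1 at -0.01, COX5B in CAKI-1 at -0.03 and NDUFB4 in CAKI-1 at -0.02. With median centering, these were ATP5F1C in CAKI-1 at 0.01, COX4I1 in CAKI-1 at 0.0005, COX6C in CAKI-1 at 0.02, NDUFA11 in CAKI-1 at 0.03 and SDHC in CAKI-1 at 0.01. With length and GC correction, these were ATP5F1E in CAKI-1 at -0.05 and NDUFB4 in CAKI-1 at -0.01. With scaling to total reads, this was NDUFA11 in CAKI-1 at 0.01. With 1 library left out, the ranges were COX6B2 in 769-P from -0.16 to 0.85, COX7A1 in 769-P from -0.33 to 0.53, NDUFA11 in 769-P from -0.04 to 0.3, NDUFA4L2 in 769-P from -0.34 to 0.68, ATP5F1D in CAKI-1 from -0.04 to 0.11, ATP5PO in CAKI-1 from -0.04 to 0.11, COX4I1 in CAKI-1 from -0.12 to 0.04, COX5B in CAKI-1 from -0.01 to 0.01, COX7A1 in CAKI-1 from -1.68 to 0.25, COX8A in CAKI-1 from -0.01 to 0.13, NDUFA11 in CAKI-1 from -0.22 to 0.2, NDUFA13 in CAKI-1 from -0.53 to 0.05, NDUFA7 in CAKI-1 from -0.58 to 0.97, NDUFB11 in CAKI-1 from -0.01 to 0.11, NDUFB4 in CAKI-1 from -0.03 to 0.05, NDUFS8 in CAKI-1 from -0.11 to 0.01, NDUFV2 in CAKI-1 from -0.01 to 0.29, COX7A1 for the difference between lines from -0.15 to 1.78, CYCS for the difference between lines from -0.08 to 0.01, NDUFA11 for the difference between lines from -0.06 to 0.35 and NDUFA13 for the difference between lines from -0.53 to 0.06. Genes with a handful of reads per library (NDUFA3, NDUFA7, COX6B2, COX7A1 and ATP5MGL) allow no direction at this depth.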
